A study of Mus musculus with 24 samples.

Results

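T cell and cytotoxic lymphocyte genes were measured by RNA sequencing in dorsal root ganglia, the clusters of sensory neuron cell bodies beside the spinal cord, of 3 mouse strains labelled C57, CAST and DBA. The genes were chosen by symbol: Cd3d, Cd3e, Cd3g, Cd4, Cd8a, Cd8b1, Gzma, Gzmb and Nkg7, which makes 9 of the 38215 genes in the deposited files. Ganglia were either naive or taken 5 days after a crush of the sciatic nerve, called injured here, with 4 libraries in each of 6 groups and 24 in all. The groups differ in strain and crush alone as far as the labels go: no transgene, drug, sex or age is given, and the series design calls the 4 libraries of a group biological quadruplicates. The treatment protocol speaks of sham injury where the sample labels say naive, and the other strains that the design counts were not analysed here.

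T cells recognise peptides on MHC molecules through a receptor whose signal passes through the CD3 chains, encoded by Cd3d, Cd3e and Cd3g. The co-receptor CD4 binds MHC class II and marks helper T cells, and CD8, a pair of chains encoded by Cd8a and Cd8b1, binds MHC class I and marks cytotoxic T cells. Granzymes A and B (Gzma, Gzmb) are proteases that cytotoxic T cells and natural killer cells release into target cells, and Nkg7 encodes a membrane protein of their granules. Sensory ganglia hold few resident lymphocytes, and immune cells are known to gather around sensory neurons after injury of a peripheral nerve.

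The deposited values are FPKM, a count of fragments scaled to gene length and library depth, and the length term is the whole gene with its introns. Every member lay below 1 FPKM in every library, so levels are given in thousandths of an FPKM (mFPKM), beside the number of reads that a value stands for. Total reads per library, recovered from the steps between low values, ran from 51.4 to 145 M (1 M is 1000000 reads) with a median of 107 M, lowest in injured C57 replicate 3. The summed level of 7 sensory neuron markers ran from 728 to 873 FPKM over the 24 libraries and that of 6 satellite glia and Schwann cell markers from 98.4 to 209 FPKM, so markers of the labelled tissue were present in each. The 9 members together summed to 0.0574 to 0.611 FPKM. Since the RNA came from whole ganglia, fewer cells of a type and less RNA per cell cannot be told apart.

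To show how low these levels are, the members were set beside 1007 olfactory receptor genes, a reference chosen after the data were seen, whose group means had a 90th percentile of 17.7 to 28.1 mFPKM. Nkg7 was above that level in all 6 groups, at 41.6 to 188 mFPKM, although its span of 1177 bases means that it rested on at most 40.1 reads in a library. Cd4 was above it in injured and naive CAST, in injured DBA and in injured C57. Between naive and injured ganglia, Gzmb went from the 61.9 to the 90.1 percentile of the olfactory receptor genes in DBA and from the 68.8 to the 91.8 percentile in C57, and from 0 in all naive libraries to the 98.3 percentile in CAST. Cd8b1, Cd3g and Gzma stayed below the 90th percentile in every group. A low level is read here per kilobase of gene span, so a gene with long introns such as Cd4, with 23530 bases, has a low FPKM on more reads than Nkg7.

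**Figure D1:**
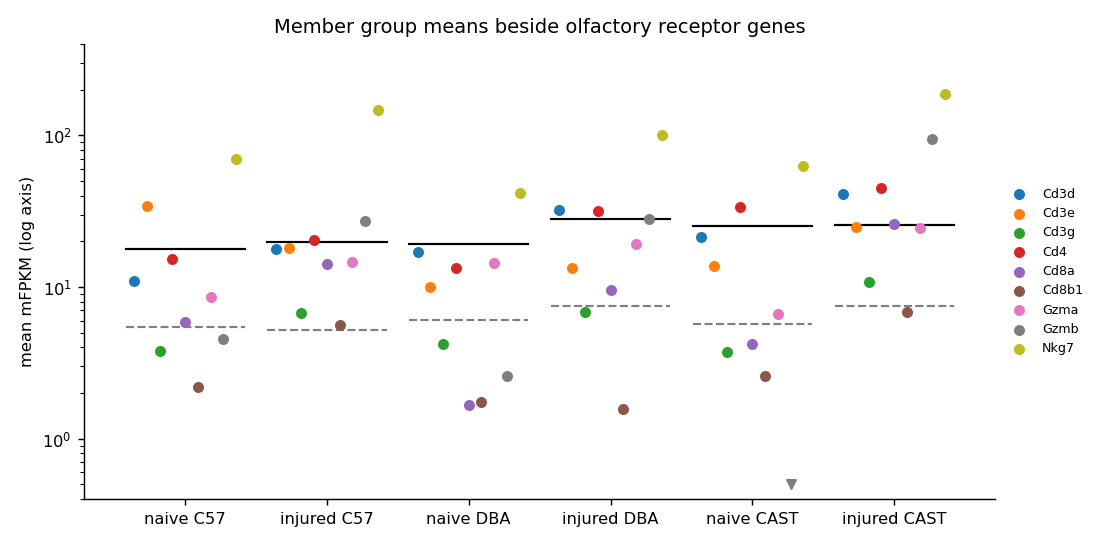
Mean level of each member (points, mFPKM, log axis) in each of 6 groups, with the 75th percentile (dashed line) and the 90th percentile (solid line) of the group means of 1007 olfactory receptor genes. The triangle at the lower edge is Gzmb in naive CAST, which was 0; Nkg7 lies above the solid line in every group.

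A gene entered the test, limma on log2(FPKM + 1), when 4 or more libraries held 10 or more of its reads, which 8 of the 9 members met. Cd8b1 reached 10 reads in 3 libraries, all of injured CAST, and is described from its values and from a fit without the filter. Of the 8, Cd8a passed with 5 libraries and Cd3g with 6, of which 4 were the injured CAST libraries in each case, so these genes owe their place to the group where they were high. Gzmb passed with 8 libraries, all of them injured: 4 of CAST, 3 of DBA and 1 of C57. No naive library held more than 4 of its reads, so Gzmb owes its place to the injured groups. A count of members called, and the calls of Cd8a, Cd3g and Gzmb, are therefore descriptions. On this scale values near 0 keep almost the spacing of FPKM itself, so log2 differences are small numbers and a test of a difference between strains compares rises in FPKM rather than ratios.

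After crush, Gzmb and Cd8a rose in all 3 strains, and further members rose in CAST and DBA. In CAST, 7 of 8 members tested were called higher and none lower, against 25.6% of all 27046 genes called higher and 21.5% lower; the member not called, Cd3e, had an adjusted p of 0.098. DBA had 4 of 8 called higher (Cd3d, Cd4, Cd8a and Gzmb) and none lower, against 26.4% of all genes higher and 23.8% lower. C57 had 2 called higher (Cd8a and Gzmb) and 1 lower (Cd3e), against 18.1% of all genes higher and 20.5% lower, so its counts lie near the background. With voom, a test of ratios on the estimated reads, the same contrasts called 6 members higher in CAST, 3 in DBA and 3 in C57, and none lower.

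**Figure D2:**
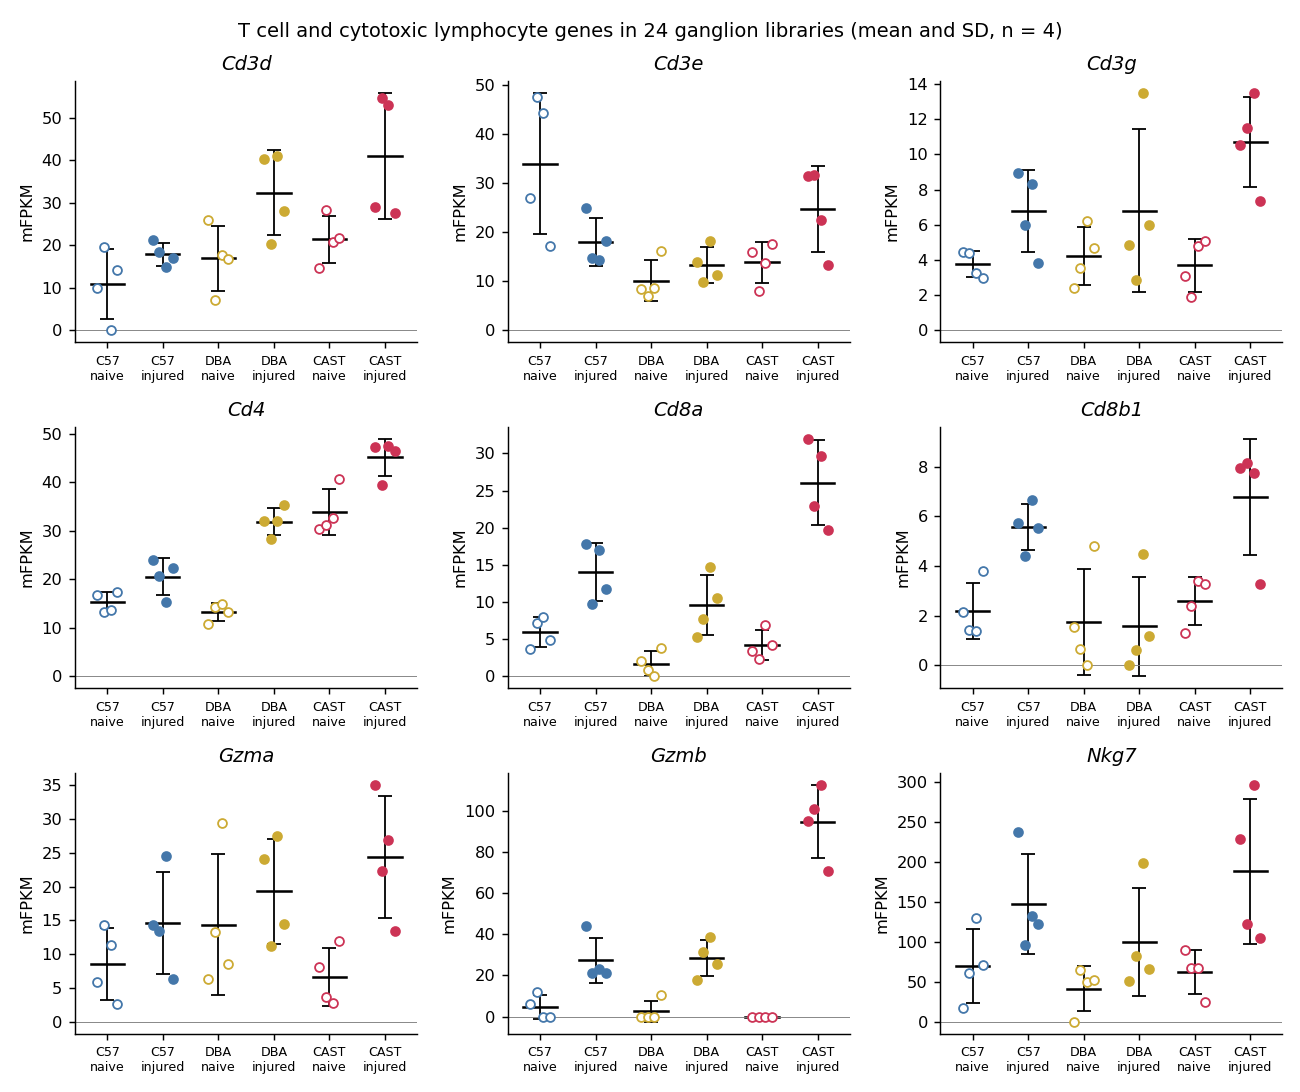
Level of each member (mFPKM) in the 24 libraries, open points for naive and filled points for injured ganglia, with the mean and SD of the 4 libraries of a group in black. Gzmb was 0 in all 4 naive CAST libraries and 70.7 to 113 mFPKM in the 4 injured ones.

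Granzyme B gave the largest ratio of injured to naive means of the members in each strain; the difference in mFPKM was larger for Nkg7 in each, though called in CAST alone. Gzmb is a protein-coding gene on the minus strand of chromosome 14 (56258838 to 56262260; positions of genes are those of GENCODE M21 on mm10, and values cover the whole gene). In CAST, Gzmb had 0 reads in all 4 naive libraries and 94.8, 101, 113 and 70.7 mFPKM in injured replicates 1 to 4, on 36.2, 43.2, 44.2 and 35.2 estimated reads. Naive C57 libraries held 6.12, 12.1, 0 and 0 mFPKM and injured C57 libraries 43.8, 21.2, 22.9 and 21.1. The DBA libraries held 0, 0, 0 and 10.3 mFPKM when naive and 17.8, 31.2, 38.5 and 25.5 when injured. Naive and injured libraries did not overlap in any strain, and every injured CAST library was above every injured library of the other strains. Counting a floor of 3 reads over the 4 naive CAST libraries, which held none in 424 M reads, Gzmb was at least 45.1-fold higher in injured CAST (log2 difference 0.13, SE 0.0091, adjusted p = 2.7e-10). In DBA it rose 10.9-fold between group means, on 4 naive reads in all (log2 difference 0.036, SE 0.0091, adjusted p = 0.0022), and in C57 5.98-fold, on 6 naive reads (log2 difference 0.032, SE 0.0091, adjusted p = 0.0077). The exact permutation test gave p = 0.029 in each strain, the smallest that 4 libraries against 4 allow (two-sided). Because Gzmb passed the filter through injured libraries alone, these p-values and the lack of overlap are descriptions. The share of all genes without overlap was not counted.

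Gzma and Nkg7 were present in naive ganglia and were called higher after crush in CAST. Gzma lies on the minus strand of chromosome 13 (113093825 to 113100981) and Nkg7 on the plus strand of chromosome 7 (43437073 to 43438249). The CAST libraries held 8.06, 3.67, 2.78 and 12 mFPKM of Gzma when naive and 35.1, 22.3, 26.8 and 13.4 when injured, a 3.68-fold higher mean without overlap (log2 difference 0.025, SE 0.0074, adjusted p = 0.0081). In C57, Gzma measured 5.82, 14.4, 11.4 and 2.6 mFPKM in naive and 14.3, 13.5, 24.5 and 6.27 in injured libraries, and it was not called (adjusted p = 0.40). DBA had 6.36, 13.2, 29.4 and 8.59 mFPKM in naive and 24, 11.1, 27.5 and 14.5 in injured libraries (adjusted p = 0.47). The highest naive Gzma value of all, in naive DBA replicate 3, came from the library whose 5 skeletal muscle markers summed to 36 FPKM, against at most 6.02 in the other 23; the part of this in the value was not tested.

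Nkg7 had the highest level per kilobase of the 9 members and a wide spread between libraries. In CAST its level was 90.1, 67.1, 67.8 and 24.4 mFPKM in naive and 229, 122, 297 and 105 in injured libraries (log2 difference 0.16, SE 0.050, adjusted p = 0.013), and without injured CAST replicate 3 the adjusted p was 0.062. For C57 the naive values were 17.7, 61.4, 131 and 71.2 mFPKM and the injured values 238, 95.7, 133 and 122 (adjusted p = 0.13). For DBA they were 0, 64.4, 49.8 and 52.4 and 51.6, 83, 199 and 66.4 (adjusted p = 0.22). The ratio of injured to naive means was 2.1 for C57, 2.4 for DBA and 3.02 for CAST, and naive and injured libraries overlapped in C57 and DBA.

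The stretch before the start of the 3 cytotoxic genes is shown because all 3 were called higher in injured CAST and Gzmb had the largest fold change of the 9 members there. Sequences are the 250 bases before the RefSeq start of each gene in GRCm38.p6, the assembly also named mm10, written 5′ to 3′ on the strand of the gene: Gzmb on the minus strand at chr14:56262335-56262584, Gzma on the minus strand at chr13:113100982-113101231 and Nkg7 on the plus strand at chr7:43436888-43437137. Capitals mark matches on either strand to 4 short motifs, RUNX (TGTGGT), T-box (GGTGTGA), AP-1 (TGANTCA) and GAS (TTCNNNGAA), the first 3 named for families of transcription factors and GAS for the element through which STAT factors answer interferon-gamma.
Gzmb: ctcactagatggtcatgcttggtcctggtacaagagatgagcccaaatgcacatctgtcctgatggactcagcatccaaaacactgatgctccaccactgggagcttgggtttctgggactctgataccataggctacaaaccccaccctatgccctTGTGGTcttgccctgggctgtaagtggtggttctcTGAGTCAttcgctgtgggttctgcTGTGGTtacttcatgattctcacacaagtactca
Gzma: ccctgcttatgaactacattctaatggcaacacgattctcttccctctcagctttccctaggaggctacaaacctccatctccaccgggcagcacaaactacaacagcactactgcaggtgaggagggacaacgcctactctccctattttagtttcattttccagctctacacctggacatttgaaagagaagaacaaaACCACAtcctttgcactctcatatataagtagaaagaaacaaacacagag
Nkg7: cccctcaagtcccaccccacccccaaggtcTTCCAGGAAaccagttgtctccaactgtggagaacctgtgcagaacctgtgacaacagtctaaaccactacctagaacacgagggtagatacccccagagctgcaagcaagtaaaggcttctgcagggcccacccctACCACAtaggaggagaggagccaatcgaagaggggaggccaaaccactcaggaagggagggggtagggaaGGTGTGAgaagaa
The Gzmb window held 2 RUNX matches, 93 to 88 and 34 to 29 bases before the start, and an AP-1 match 58 to 52 bases before it. Gzma held 1 RUNX match on the opposite strand, 50 to 45 bases before its start. In Nkg7 lay a RUNX match on the opposite strand, a T-box match 13 to 7 bases before the start and a GAS match. The RefSeq start of Nkg7 lies inside the GENCODE gene, so this T-box match falls within the span given above for the gene, and the RefSeq start of Gzmb lies upstream of its GENCODE start. Among 32851 promoter windows of this length, RUNX letters were present in 14.0%, T-box letters in 3.33%, AP-1 letters in 6.75% and GAS letters in 7.02%. Of the other members, Cd3d held a GAS match, and the windows of Cd3e, Cd3g and Cd8a held none of the 4. RefSeq entries matched 7 of the 9 members, not Cd4 and Cd8b1. These matches describe letters and were not measured as binding.

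Of the CD8 chains, Cd8a (chromosome 6, 71373427 to 71379173, plus strand) rose in every strain and Cd8b1 (71322788 to 71337494, plus strand) was too low for the filter. Cd8a measured 3.35, 2.28, 6.93 and 4.15 mFPKM in naive CAST and 32, 22.9, 29.6 and 19.7 in injured CAST, a 6.24-fold higher mean (log2 difference 0.031, SE 0.0035, adjusted p = 2.4e-07). In DBA, where it was lowest, the naive libraries had 1.98, 0.823, 0 and 3.82 mFPKM and the injured libraries 5.28, 7.71, 14.7 and 10.6 (log2 difference 0.011, SE 0.0035, adjusted p = 0.0099). The C57 values were 3.62, 7.17, 8.0 and 4.85 mFPKM when naive and 17.8, 9.78, 16.9 and 11.7 when injured (log2 difference 0.012, SE 0.0035, adjusted p = 0.011). Naive and injured libraries did not overlap in any of the 3 strains, a description because Cd8a passed the filter through injured libraries alone. These values rest on 4 reads over the 4 naive DBA libraries and on 73.0 over the 4 injured CAST libraries, and without naive C57 replicate 1, injured C57 replicate 3 and naive DBA replicate 3, left out together because earlier results of these data had singled them out, the C57 adjusted p was 0.091.

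Cd8b1, on the same chromosome 35932 bases from Cd8a, had no higher mean in injured than in naive DBA. Its values in injured DBA were 0, 0.605, 4.48 and 1.18 mFPKM, on 10 reads in all, and in naive DBA 1.55, 0.646, 0 and 4.8, on 11 reads. CAST had 1.31, 2.39, 3.4 and 3.26 mFPKM when naive and 7.96, 8.16, 7.74 and 3.29 when injured, and C57 2.13, 1.41, 1.4 and 3.81 and 5.73, 4.38, 6.64 and 5.51. In the limma fit without the filter Cd8b1 was called higher after crush in CAST (adjusted p = 0.0093) and C57 (adjusted p = 0.042), while DBA gave an adjusted p of 0.97. Whether the DBA response differed from the others was tested in the same fit and not called (adjusted p = 0.12 against CAST and 0.30 against C57). Between injured groups, Cd8b1 was called higher in CAST than in DBA (adjusted p = 0.0017) and lower in DBA than in C57 (adjusted p = 0.019). Libraries overlapped in both comparisons (exact permutation test, unadjusted p = 0.057 in each). As Cd8b1 reached 10 reads in injured CAST libraries alone, its calls without the filter are descriptions.

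Cd4, on the minus strand of chromosome 6 (124864692 to 124888221), was the member with the most reads, 18.4 to 159 in a library, and was higher in CAST before injury. Naive CAST libraries held 30.4, 31.3, 32.7 and 40.8 mFPKM, naive C57 libraries 16.8, 13.3, 13.7 and 17.3 and naive DBA libraries 10.8, 14.4, 14.9 and 13.2. Every naive CAST value was thus above every naive value of the other strains. The naive CAST mean was 2.21-fold that of C57 (log2 difference 0.026, SE 0.0033, adjusted p = 1.5e-06) and 2.54-fold that of DBA (log2 difference 0.029, SE 0.0033, adjusted p = 3.8e-07), whereas naive DBA and C57 were not called apart (adjusted p = 0.64). Cd4 was the only member called higher in either naive comparison of CAST, against 24.1% of all genes higher and 19.9% lower in CAST than in C57, and 23.7% higher and 20.5% lower in CAST than in DBA. Cd3d, Cd3g, Cd8a, Gzma, Gzmb and Nkg7 were not called between naive CAST and C57 (adjusted p = 0.18 to 0.98), where voom called Cd3d (adjusted p = 0.048), nor, with Cd3e, between naive CAST and DBA (0.25 to 0.84).

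After crush Cd4 was called higher in DBA and CAST. Injured DBA libraries measured 32, 28.3, 31.9 and 35.2 mFPKM, a 2.4-fold higher mean than naive, without overlap (log2 difference 0.026, SE 0.0033, adjusted p = 1.0e-06). In CAST the injured values were 47.3, 39.5, 47.5 and 46.4 mFPKM, 1.34-fold the naive mean (log2 difference 0.016, SE 0.0033, adjusted p = 4.3e-04), and 1 injured library lay below the highest naive one. The injured C57 values were 23.9, 20.6, 15.2 and 22.4 mFPKM, 1.34-fold the naive mean, which was not called (adjusted p = 0.081); voom called it (adjusted p = 0.027). The rise was larger in DBA than in C57 (log2 difference 0.019, SE 0.0046, adjusted p = 0.012), the only member called in that comparison, which called 5.38% of all genes higher and 3.65% lower. CAST and DBA rises were not called apart in FPKM (adjusted p = 0.15), but as ratios voom called the CAST rise smaller (log2 difference -0.83, SE 0.19, adjusted p = 0.0047). The order of group means was injured CAST, naive CAST, injured DBA, injured C57, naive C57 and naive DBA, and naive CAST and injured DBA, at 33.8 ± 4.76 and 31.9 ± 2.81 mFPKM (SD, n = 4), lay within each other's spread.

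The genes of the 3 CD3 chains, which lie side by side on chromosome 9 (Cd3g from 44969572 to 44980431 on the minus strand, Cd3d from 44981786 to 44987339 on the plus strand and Cd3e from 44998740 to 45009627 on the minus strand), gave different calls. Cd3g, the least abundant, rose in CAST from 3.08, 1.87, 4.78 and 5.09 mFPKM in naive to 10.5, 11.5, 13.5 and 7.34 in injured libraries, a 2.89-fold higher mean without overlap (log2 difference 0.010, SE 0.0025, adjusted p = 0.0027). This is a description, as 4 of the 6 libraries through which Cd3g passed the filter were injured CAST. C57 had 4.44, 4.4, 3.27 and 2.98 mFPKM of Cd3g when naive and 8.95, 5.99, 8.31 and 3.83 when injured (adjusted p = 0.20). Naive DBA had 2.43, 3.53, 6.24 and 4.69 mFPKM and injured DBA 4.85, 2.84, 13.5 and 6.01 (adjusted p = 0.25), and the high injured value there came from replicate 3 alone.

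Cd3d was called higher in CAST and DBA. The naive CAST libraries measured 14.6, 28.3, 20.8 and 21.8 mFPKM and injured CAST libraries 29, 54.5, 53.1 and 27.4, with 1 naive library reaching into the injured range (log2 difference 0.027, SE 0.0086, adjusted p = 0.013). DBA libraries held 26, 7.19, 17.8 and 16.7 mFPKM when naive and 40.3, 20.2, 40.9 and 28 when injured (log2 difference 0.022, SE 0.0086, adjusted p = 0.042). In C57, the naive values were 9.9, 19.6, 0 and 14.1 and the injured values 21.3, 18.3, 14.8 and 17.1 mFPKM (adjusted p = 0.40). The ratio of injured to naive means was 1.92 for CAST, 1.92 for DBA and 1.64 for C57. With voom none of the 3 passed (adjusted p = 0.10 in CAST, 0.10 in DBA and 0.10 in C57). The CAST call was also lost without injured CAST replicate 2 (adjusted p = 0.057) or 3 (0.056), and the DBA call without any of 5 libraries, injured DBA replicates 1 and 3 and naive DBA replicates 2, 3 and 4 (adjusted p = 0.064 to 0.14).

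Cd3e was the member called lower after crush, in C57, and the call rested on a pair of naive libraries. Naive C57 replicates 1 to 4 measured 26.9, 47.5, 44.3 and 17.1 mFPKM, on 28.1, 50.2, 47.2 and 20.1 reads, and the injured replicates 24.9, 14.8, 14.3 and 18.2 mFPKM (log2 difference -0.022, SE 0.0074, adjusted p = 0.022). Replicates 2 and 3, the high ones, held 10.6 and 0 reads of Cd3d and 4.6 and 3.5 of Cd3g. Cd3d was thus also at its naive C57 maximum in replicate 2, at 19.6 mFPKM, and listed at 0 in replicate 3. Without both replicates, an alternative chosen after the data were seen, the adjusted p was 0.59. Leaving out naive C57 replicate 2 or 3, or injured C57 replicate 2 or 3, also ended the call (adjusted p = 0.055 to 0.098), as did voom (adjusted p = 0.078). In the annotation Cd3e overlaps an antisense gene and another gene of unknown coding status, and it is the only member that overlaps any gene; strand use in counting is not given in the sources used here, so reads of the antisense partner cannot be told apart.

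In the other strains Cd3e had lower naive levels. CAST had 15.9, 8.06, 13.8 and 17.6 mFPKM when naive and 31.4, 31.6, 22.5 and 13.3 when injured, and DBA 8.39, 6.97, 8.62 and 16.2 and 14, 9.8, 18.1 and 11.2. Naive Cd3e was called lower in CAST than in C57 (log2 difference -0.028, SE 0.0074, adjusted p = 0.0038) and lower in DBA than in C57 (log2 difference -0.034, SE 0.0074, adjusted p = 0.0020). It was the only member called in naive DBA against C57, where 11.1% of all genes were called higher and 10.2% lower. Both calls ended without naive C57 replicates 2 and 3 (adjusted p = 0.18 and 0.082).

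**Figure D3:**
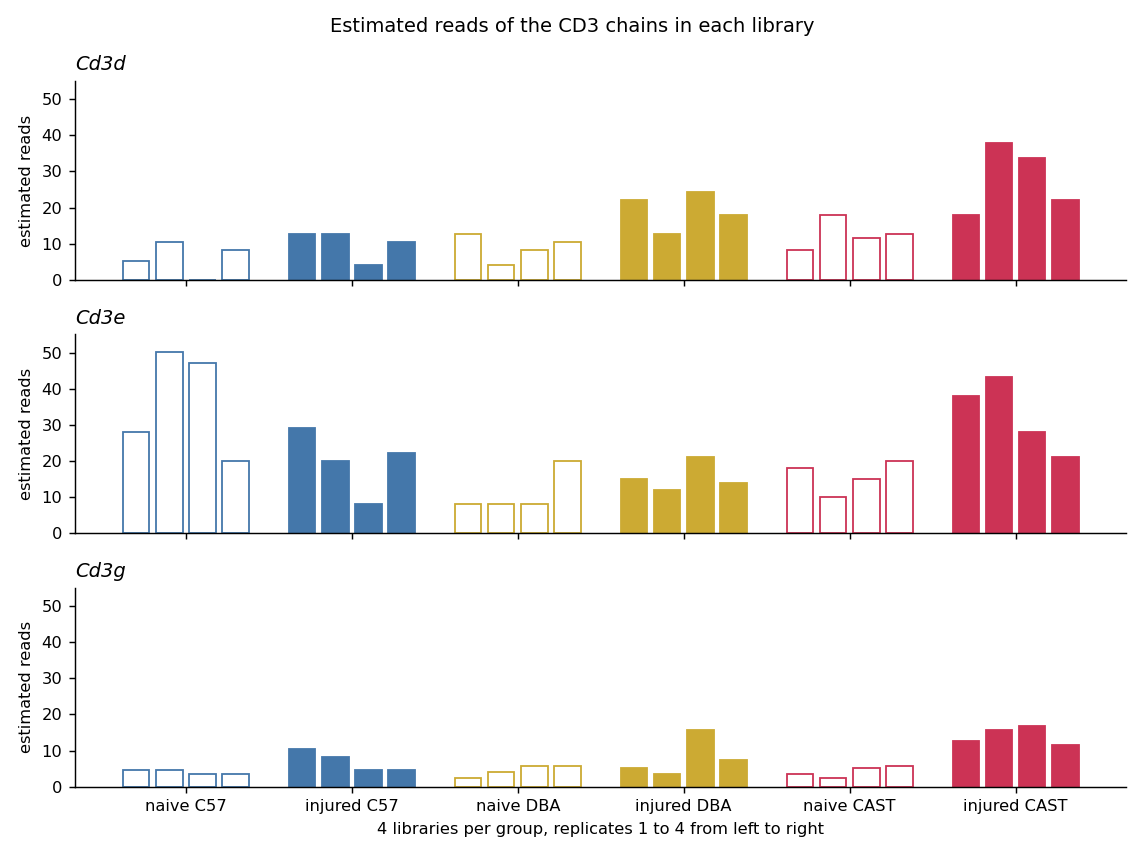
Estimated reads of Cd3d, Cd3e and Cd3g in each of 24 libraries, 4 bars per group for replicates 1 to 4 and filled bars for injured ganglia. Cd3e stands at 50.2 and 47.2 reads in naive C57 replicates 2 and 3, where Cd3d has 10.6 and 0 reads.

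In direct tests of whether strains differed in their response, Gzmb and Cd8a were called in CAST against each of the other strains. Both passed the filter through injured libraries alone, Cd8a through 4 of injured CAST and 1 other. These calls and the counts that hold them are therefore descriptions. The rise of Gzmb was larger in CAST than in C57, 94.7 against 22.7 mFPKM (log2 difference 0.10, SE 0.013, adjusted p = 1.6e-05), and larger than in DBA, where it was 25.7 mFPKM (log2 difference 0.094, SE 0.013, adjusted p = 2.2e-05). As ratios, voom called the difference from C57 (adjusted p = 0.023) and not that from DBA (adjusted p = 0.065). Cd8a rose by 21.9 mFPKM in CAST, more than the 8.15 of C57 (log2 difference 0.019, SE 0.0049, adjusted p = 0.010) and the 7.90 of DBA (log2 difference 0.020, SE 0.0049, adjusted p = 0.0077), but voom called neither (adjusted p = 0.13 and 0.82). Cd3e was called higher in CAST minus C57 (log2 difference 0.038, SE 0.010, adjusted p = 0.020), a difference that holds the high naive C57 values and was lost without replicates 2 and 3 (adjusted p = 0.12) and with voom (adjusted p = 0.055). These were 3 of 8 members in CAST minus C57, which called 7.99% of all genes higher and 5.14% lower, and 2 of 8 in CAST minus DBA, with 8.08% higher and 7.54% lower.

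Between injured ganglia, Cd4, Cd8a and Gzmb were called higher in CAST than in each of the other strains. With 8 members tested, the counts called lie near the shares of all genes given beside them. Against injured C57, Cd3d (2.3-fold, adjusted p = 0.0039), Cd4 (2.2-fold, 2.7e-08), Cd8a (1.85-fold, 3.9e-04) and Gzmb (3.48-fold, 5.2e-08) were called higher, 4 of 8 against 28.9% of all genes, and none lower against 19.8%. Libraries of these 4 genes did not overlap between the groups, but the share of all genes without overlap was not counted. The call of Cd3d ended with voom (adjusted p = 0.058). Cd3e, Cd3g, Gzma and Nkg7 were not called there (adjusted p = 0.075 to 0.44). Against injured DBA, Cd4 (1.42-fold, adjusted p = 8.6e-05), Cd8a (2.73-fold, 1.1e-05) and Gzmb (3.35-fold, 6.5e-08) were called higher, 3 of 8 against 26.6% of all genes, with none lower against 21.6%. Cd3d, Cd3e, Cd3g, Gzma and Nkg7 were not called (adjusted p = 0.077 to 0.45). Without injured CAST replicate 4 the count was 6 in place of 3, and without injured DBA replicate 3 it was 5. Between injured DBA and C57, Cd4 alone was called, 1.55-fold higher in DBA (adjusted p = 6.9e-04), where 18.2% of all genes were higher and 14.3% lower; without injured DBA replicate 2 it was 2 members. Gzmb did not separate injured DBA from injured C57, at 28.2 ± 8.77 and 27.2 ± 11.1 mFPKM (SD, n = 4; adjusted p = 0.93). These comparisons share the injured CAST or DBA libraries with the crush comparisons and are not independent of them.

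**Figure D4:**
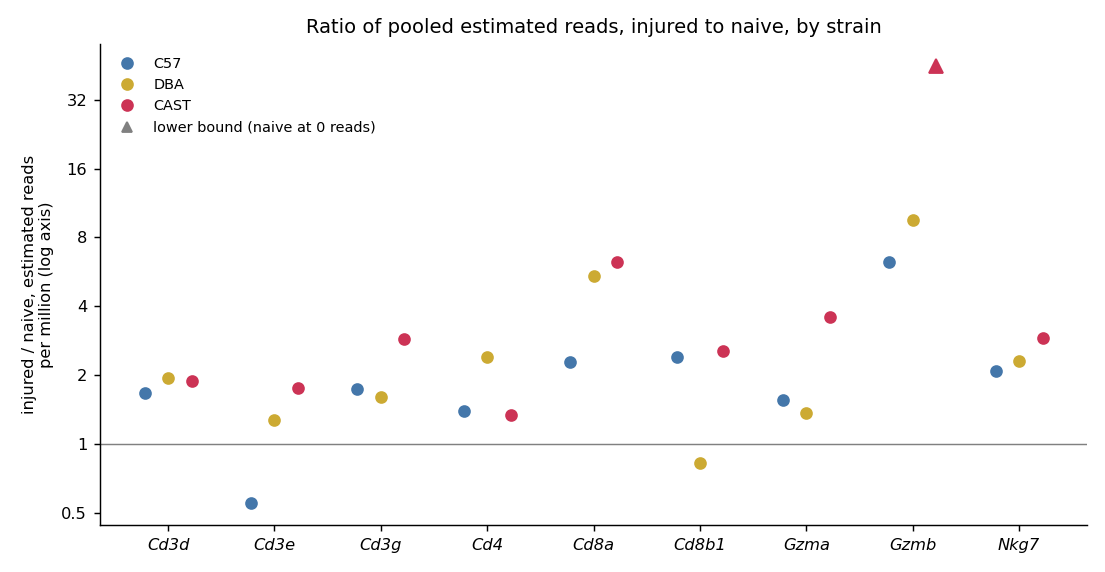
Ratio of injured to naive ganglia for each member and strain, from estimated reads pooled over the 4 libraries of a group and divided by their total reads (log axis). The Gzmb ratio in CAST, at least 45.1, is a lower bound because no read was found in naive CAST.

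Some libraries ranked high or low for most members at once. Injured DBA replicate 3 was the highest of its group for 8 of 9 members, all but Cd4, and its 7 erythrocyte markers summed to 1298 FPKM, the highest of the 24 libraries. Injured C57 replicate 1 was highest for 7 members, all but Cd8b1 and Gzma, with erythrocyte markers at 415 FPKM, the lowest of its group. Injured CAST replicate 4, the deepest library, was lowest for 8 members, all but Cd4. The part of blood in these values was not tested. In naive groups no library was highest for more than 4 members.

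Other genes of T cells, a list of 25 of which 21 passed the filter, held 6 genes called higher after crush for C57, 11 for CAST and 10 for DBA, with none lower, against 18.1%, 25.6% and 26.4% of all genes called higher. Their median log2 difference was 0.013, 0.017 and 0.023, against -0.00023, 0.0015 and 0.0013 for all genes. The constant segments of the T cell receptor beta chain led the list in all 3 strains: Trbc2 rose 10.2-fold (C57), 13.4-fold (CAST) and 12.1-fold (DBA), and Trbc1 in the same order 8.13-fold, 13.9-fold and 7.64-fold. These ratios were larger than those of the 3 CD3 genes, which lay between 0.53 and 2.89. Il2rb, a receptor chain for interleukins of T and natural killer cells, had injured means 3.4, 8.24 and 5.53 times the naive means and was called in each. Trac, the constant segment of the alpha chain, was called higher in CAST (0.0872 against 0.0522 FPKM, limma adjusted p = 0.022). It was not called in C57 or DBA (adjusted p = 0.58 and 0.55). Cd27 and Trat1 had lower means in injured than in naive ganglia of each strain, and neither was called lower. In the tests between strains, Trbc2, Fyb and Cd96 were called lower in CAST minus DBA. Trbc1 and Trbc2 are close copies, so the split of reads between them is uncertain.

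Other cytotoxic and natural killer genes, a list of 20 of which 16 passed, were called higher in 8 cases in CAST, 7 in DBA and 1 in C57 (Klrd1, 3.02-fold), with 1 lower in DBA. All genes were called higher at 25.6%, 26.4% and 18.1% in that order, so the C57 count lies below the share of all genes. Ccl5, a chemokine made by activated T cells, rose 36.3-fold (CAST) and 6.99-fold (DBA). Klrk1, an activating receptor of natural killer and CD8 T cells, rose 7.0-fold and 2.65-fold. Ccl5 and Tbx21, a transcription factor of type 1 lymphocytes, were called higher in CAST minus C57 (log2 difference 0.45 and 0.084) and in CAST minus DBA (0.35 and 0.077). In all, 4 of the 16 genes were called higher in CAST minus C57 and 3 in CAST minus DBA, against 7.99% and 8.08% of all genes. The median log2 difference of the list after crush was 0.0055, 0.010 and 0.012 for C57, CAST and DBA.

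Genes of MHC molecules, the ligands of CD4 and CD8, and of their assembly were mostly called higher after crush. The list held H2-K1, H2-D1 and B2m of class I, H2-Aa, H2-Ab1 and H2-Eb1 of class II, the peptide transporter gene Tap1 and Cd74, which encodes the invariant chain of class II. Of these 8 genes, 8 were called higher after crush in CAST, 7 in DBA and 5 in C57, against 25.6%, 26.4% and 18.1% of all genes in that order. All 8 were called higher in CAST minus C57 and 7 in CAST minus DBA, against 7.99% and 8.08% of all genes. H2-Ab1, a class II chain bound by CD4, rose 9.69-fold (CAST), 2.76-fold (DBA) and 2.36-fold (C57). The naive CAST level of the list, 23.5 to 24.9 FPKM in sum, was below that of naive C57, 42.3 to 57.8, while naive Cd4 was highest in CAST.

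Markers of other blood and immune cells were read in the same libraries. The 18 macrophage markers, called higher in 17 cases in C57, 16 in CAST and 17 in DBA, summed to 10.6 to 14.7, 9.42 to 12.4 and 11.7 to 19 FPKM in naive and 46.3 to 55.5, 60.4 to 82.6 and 65 to 77.1 in injured C57, CAST and DBA. The 11 B cell markers were called higher in 3, 1 and 2 cases and lower in 1 case each. All genes were called higher at 18.1%, 25.6% and 26.4% and lower at 20.5%, 21.5% and 23.8% in C57, CAST and DBA. The B cell markers summed to 5.05 to 5.53 FPKM in naive and 4.01 to 4.79 in injured C57, above the other strains. Most of that sum was Ighm, with means of 4.68 FPKM in naive and 3.63 in injured C57, against 0.577 in naive CAST and 1.12 in naive DBA. The 7 erythrocyte markers were called in no case in C57 and CAST and higher in 3 cases in DBA, and summed to 207 to 1298 FPKM. The 11 markers of neutrophils and mast cells were called higher in 1, 1 and 4 cases and lower in 0, 1 and 1. In CAST minus C57, 11 of the 18 macrophage markers were called higher and 3 lower, and in CAST minus DBA 7 higher and 2 lower. These contrasts called 7.99% and 8.08% of all genes higher and 5.14% and 7.54% lower. Of the B cell markers, 1 was called higher and 2 lower in CAST minus C57, and 0 higher and 1 lower in CAST minus DBA. No gene of these lists was at 0 in all 24 libraries, and their part in the levels of the members was not tested.

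Genes with the most similar pattern were sought by Pearson correlation of log2(FPKM + 1) over the 24 libraries, which share strain and crush, so the values are descriptions. Gzmb was closest to Fbxw13 (r = 0.97), AW112010 (r = 0.97) and Gm10354 (r = 0.97). AW112010 also came second for Cd8a, beside Aoah (r = 0.96) and Fndc3a (r = 0.95). Cd4 was closest to Pofut2 (r = 0.97), Syngr2 (r = 0.96) and Tcf19 (r = 0.96). For Gzma the genes were Cenpp (r = 0.88), Ogn (r = 0.87) and Scara5 (r = 0.85), for Nkg7 AL808023.1 (r = 0.85), SNORA38 (r = 0.85) and Tbp (r = 0.82) and for Cd8b1 Slc28a2 (r = 0.82), 1110004F10Rik (r = 0.81) and 4930556N13Rik (r = 0.81). The CD3 chains had no gene in common: Cd3d was closest to Mfng (r = 0.84), Snord58b (r = 0.83) and Pcdhb12 (r = 0.82), Cd3e to Sulf1 (r = 0.79), Aldh1a1 (r = 0.79) and Gm17414 (r = 0.78) and Cd3g to Chic2 (r = 0.84), 1700024N20Rik (r = 0.84) and Gm15908 (r = 0.84).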

How the data were processed

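Libraries were made from Trizol-extracted total RNA by a standard Illumina protocol, per the labels' protocols, and aligned with STAR 2.3.0 to mm10, per the submitters' processing notes. No source used here gives the counting tool, annotation or strand use. All 3 strains were aligned to 1 build; the part of this in comparisons between strains was not tested.

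The authors deposited FPKM values. Multiplied by gene spans of GENCODE M21 (found for 95.3% of IDs), low values fell on whole reads within 0.05 in 67.9% of cases, against 10.0% by chance, which gave total and estimated reads; some genes, Cd8a and Cd3g among them, fall on fractions of a read.

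A gene was kept when 4 or more libraries held 10 or more estimated reads (FPKM of 0.1 where no span was known), 27046 of 38215. limma 3.58.1 (statmod 1.5.0, R 4.3.3) was fitted to log2(FPKM + 1) with 6 group means and trended, robust empirical Bayes; two-sided p-values were Benjamini-Hochberg adjusted within each of 12 contrasts and called under 0.05. They measure the spread between libraries. The fit was also run on simulated reads of genes that passed the filter, with a fixed spread and changes in injured CAST alone. No result given here rests on that run. As the files hold FPKM, no count test was the main test; limma's voom on the estimated reads was an alternative.

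The rule for named genes was all 9 members and, of each marker list, the counts and up to 4 called genes with the largest ratio. Trac, Cd27 and Trat1 were named in addition, to show genes of the T cell list with few or no calls. Members and lists were chosen with earlier results of these data known. Same-numbered libraries did not deviate together (correlations of -0.22 to 0.23). Alternatives were other pseudocounts, scalings, filters and tests, and leaving out each library.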

Additional observations from a re-analysis of the deposited data

Results flagged for a closer look

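In a group of 4, 1 library stood apart for 4 of the 53 member and group combinations with differing values, by Dixon's ratio of the gap to the range; chance gives about 1 in 20. Cd4 was 39.5 mFPKM in injured CAST replicate 2, below 46.4 to 47.5 in the other 3. Cd8b1 was 3.29 mFPKM in injured CAST replicate 4, below 7.74 to 8.16. Gzmb was 43.8 mFPKM in injured C57 replicate 1, above 21.1 to 22.9. Gzmb was also 10.3 mFPKM in naive DBA replicate 4, on 4 reads, with 0 in the other 3.

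By limma's test of the interaction between strain and crush, 6 combinations of member and strain pair were called. In CAST minus C57 the log2 difference was 0.038 for Cd3e, 0.019 for Cd8a and 0.098 for Gzmb. In CAST minus DBA it was 0.020 for Cd8a and 0.094 for Gzmb, and in DBA minus C57 it was 0.019 for Cd4. In that order these contrasts called 7.99%, 8.08% and 5.38% of all genes higher and 5.14%, 7.54% and 3.65% lower. Cd8a and Gzmb passed the filter through injured libraries alone, so their calls are descriptions. The Cd3e call was lost without naive C57 replicates 2 and 3 (limma adjusted p = 0.12). Of the 6, voom called Gzmb in CAST minus C57 and Cd4 in DBA minus C57.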

How the results depend on the processing

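Of 32 member differences called, 20 kept their direction and call under every limma and voom alternative that tested them: all 8 of Cd4, Gzmb except CAST minus DBA, Cd8a in CAST and DBA crush and between injured CAST and either strain, and Cd3g and Gzma in CAST crush. No called difference reversed. Cd8a, Cd3g and Gzmb owe their place in the test to groups where they were high, so for them this is a description of the calls. With the filter at 0.1 FPKM, Nkg7 was the only member tested, which by construction left 1 call in CAST crush and 0 in each of the other 11 contrasts. Counts of members called that moved by over 1.5 times were, with voom, 1 in CAST minus C57, 1 (Cd4, lower) in CAST minus DBA and 2 in naive DBA against C57; with a pseudocount of 0.01, 2 in naive DBA against C57; with only the groups of the contrast, 1 in naive CAST against C57 and 0 in naive DBA against C57; without the filter, 2 in injured DBA against C57; without naive C57 replicates 2 and 3, 1 in CAST minus C57, 1 in naive CAST against C57 and 0 in naive DBA against C57; by the exact permutation test, unadjusted, 1 in naive CAST against C57. The cause was not tested. Leaving out 1 library at a time gave 2 to 4 members in C57 crush, 5 to 8 in CAST crush, 3 to 4 in DBA crush, 3 in CAST minus C57, 2 to 3 in CAST minus DBA, 1 to 2 in DBA minus C57, 2, 1 and 1 in the naive comparisons of CAST with C57, CAST with DBA and DBA with C57, and 4 to 6, 3 to 6 and 1 to 2 in the same comparisons of injured ganglia. The replicate block changed the count from 4 to 3 in DBA crush (Cd3d, adjusted p = 0.059), from 4 to 5 in injured CAST against C57 and from 3 to 4 in injured CAST against DBA, and no other count; as the numbers do not pair the libraries, this bears on no effect size. Depth limits all members but Cd4, which rest on at most 50.2 reads in a library.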

Other observations

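Chemokines that guide lymphocytes also changed after crush. Of 15 genes of lymphocyte traffic and the interferon-gamma response, 8 were called higher in C57, 13 in CAST and 11 in DBA, with 1 lower in each, against 18.1%, 25.6% and 26.4% of all genes called higher. Ccl8, a ligand of chemokine receptors on monocytes and T cells, rose 34.1-fold in C57 and 51.6-fold in DBA. Its rise was called smaller in CAST than in C57 (log2 difference -1.18) and DBA (-2.13). Cxcl9 and Cxcl10, ligands of Cxcr3, a chemokine receptor on T cells, rose 26.1-fold and 15.6-fold in CAST. Cxcl10 was called higher in CAST minus C57 (log2 difference 1.11). Of the 15 genes, 6 were called higher and 2 lower in CAST minus C57, and 3 higher and 2 lower in CAST minus DBA. These contrasts called 7.99% and 8.08% of all genes higher and 5.14% and 7.54% lower.

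Of 10 dendritic cell markers, 9 were called higher in CAST, 8 in DBA and 6 in C57, with 1 lower in DBA and 1 in C57. All genes were called higher at 25.6%, 26.4% and 18.1% and lower at 21.5%, 23.8% and 20.5% in CAST, DBA and C57. Ccr7, a receptor of migrating dendritic cells and T cells, rose 9.24-fold, 3.73-fold and 7.85-fold in that order. In CAST minus C57, 4 of the 10 were called higher and 1 lower, and in CAST minus DBA 3 higher and 2 lower. These contrasts called 7.99% and 8.08% of all genes higher and 5.14% and 7.54% lower. Of 5 skeletal muscle markers 1 was called lower in DBA, and none of 4 adipocyte markers was called after crush in any strain. Of 7 sensory neuron markers, 4 were called lower in C57 and 5 in CAST and in DBA, and 1 was called higher in each.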
